A study of Mus musculus with 6 samples.

Results

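Autophagy is the process by which a cell wraps part of its own cytoplasm in a double membrane, the autophagosome, and delivers it to the lysosome for breakdown. The genes described here encode its core machinery: the protein-coding genes with an Atg symbol, the LC3 and GABARAP genes, the Ulk and Wipi genes, and 10 further genes named one by one (Becn1, Sqstm1, Nbr1, Optn, Calcoco1, Tax1bp1, Uvrag, Ambra1, Rb1cc1 and Vmp1). By symbol and gene type 37 of the 55487 genes in the count tables were members, and all 37 passed the filter on low counts that left 15000 genes for testing. They were compared, step by step, between granulosa cells exposed to cetylpyridinium chloride (CPC) and controls.

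RNA sequencing counts came from 6 libraries titled as mouse ovarian granulosa cells, the follicle cells that surround the oocyte. The 3 control libraries are labelled as given phosphate-buffered saline and the 3 others as given CPC, a quaternary ammonium antiseptic of mouthwashes, and both groups carry the genotype label WT. Dose, time, strain and age, and whether CPC was given to animals or to cells in culture, are not stated in the labels. The study asked how CPC affects ovarian health through granulosa cells. The labels also name the human ovarian cancer line SKOV3 and a GATA4 transfection, while the files hold mouse genes only. No label ties a replicate to its own animal or culture, and the p-values therefore reflect differences among libraries that may be technical in origin.

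Totals were 19079345 to 23157541 counts per library. Of 12 granulosa cell markers the levels summed to 10877 to 13622 CPM (the count relative to the library total, with TMM scaling factors) in control and 4326 to 5282 CPM in CPC. Most of this sum was Cyp11a1 (mean 5365 CPM in control and 1056 CPM in CPC) and Inhba (4154 and 2189 CPM). Of 11 tested 8 fell (edgeR adjusted p under 0.05), beside 19.7% of all tested genes. Gata4 and Wt1 were lower without passing (log2 change -0.18 and -0.35), and Cyp19a1 was higher without passing (0.90). Amh, a granulosa hormone of early follicles, had 8 counts over all libraries and the aromatase gene Cyp19a1 had 90. Of 12 leukocyte markers 10 were tested and 9 fell, and the sum of the 12 was 201 to 343 CPM in control and 13.9 to 37.1 CPM in CPC. Surface epithelium markers summed to 341 and 353 CPM in replicate 1 of control and CPC and to 90.4 to 173 CPM in the other 4 libraries. Theca and stroma markers summed to 275 to 907 CPM over the 6 libraries, with the theca enzyme gene Cyp17a1 at 0. Endothelial markers summed to 4.28 to 4.96 CPM in control and 3.01 to 3.96 CPM in CPC, and 0 of 3 tested passed. Oocyte markers summed to 1.49 to 4.80 CPM in control and 0.251 to 0.559 CPM in CPC, all 8 below the filter. Erythroid markers summed to at most 0.140 CPM. Whether these differences in marker levels play a part in the results below was not tested. In such bulk samples, fewer cells of a type and less RNA per cell cannot be told apart.

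Autophagosomes form in a fixed order of events. The ULK kinase complex starts the process, a phosphatidylinositol 3-kinase complex built on Beclin 1 marks the membrane, and WIPI, ATG2 and ATG9 proteins help the membrane to grow. A pair of ubiquitin-like conjugation systems then attaches LC3 and GABARAP proteins to the lipid phosphatidylethanolamine, and receptors such as p62 (Sqstm1) and optineurin (Optn) tie cargo to the lipid-bound LC3. In the ovary, autophagy is known from the survival of germ cells and the atresia of follicles.

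Most members, 24 of 37, did not pass the test, and those that did were spread over every step but the ATG4 proteases. Of 37 members 9 rose and 4 fell (edgeR's quasi-likelihood test, Benjamini-Hochberg adjusted p under 0.05 over all tested genes), or 24.3% and 10.8%. The background over all 15000 genes was 19.6% higher and 19.7% lower, and the difference from it was not tested. The same background applies to the count of each step, and no step's share was tested. The median log2 change was 0.06 for the members and -0.003 for all tested genes. The median size of the change, whatever its sign, was 0.19 on the log2 scale for the members and 0.36 for all tested genes. Members and all tested genes were not matched for expression level, and this difference was not tested. The groups did not overlap for 20 of 37 members, or 54.1%, against 53.5% of all tested genes (26.7% with CPC higher and 26.8% with CPC lower). Without replicate 1 of both groups 4 members rose and 0 fell. In that smaller set 928 of all genes rose and 1033 fell, and the 4 that rose were Optn, Atg2b, Uvrag and Gabarapl1.

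**Figure D1:**
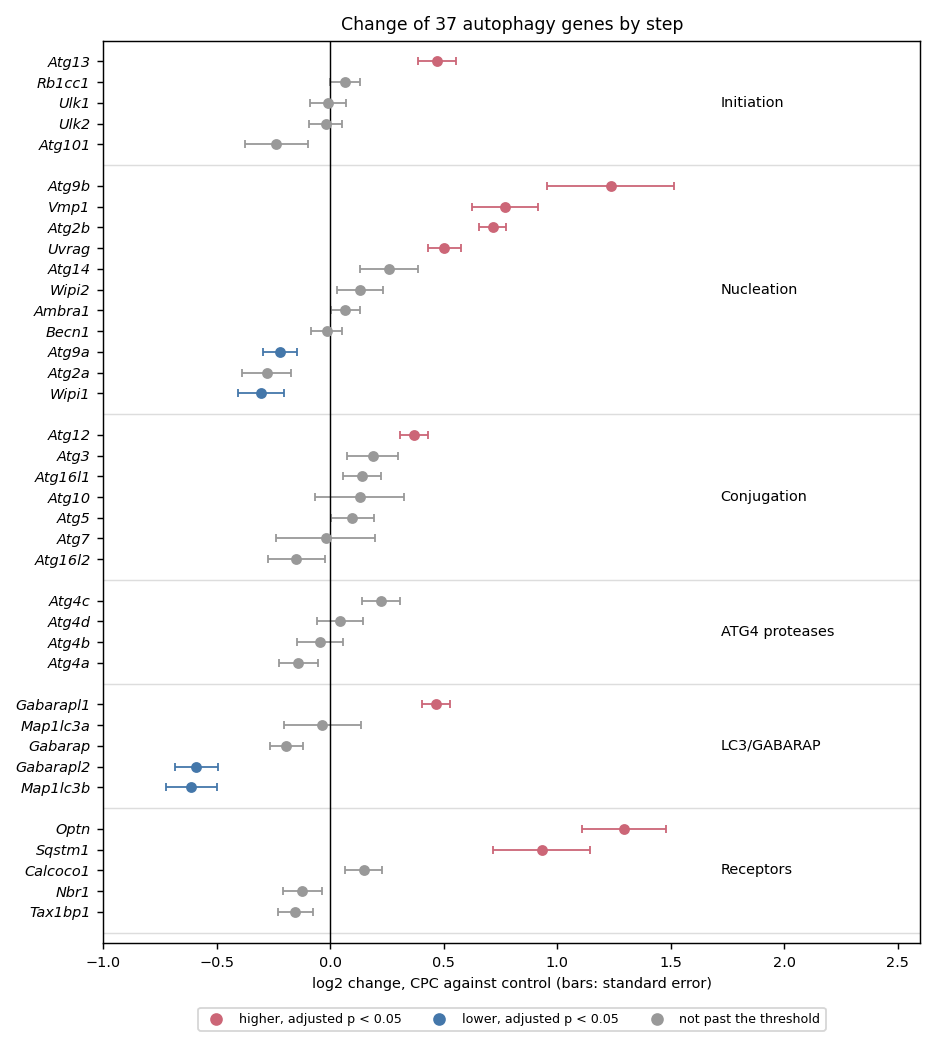
Change of the 37 members, grouped by step. Points are log2 changes of CPC against control from edgeR, bars are standard errors, and colour marks members past the adjusted p of 0.05; the largest rise is that of Optn, at 1.29, and the largest fall that of Map1lc3b, at -0.61.

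Of 5 cargo receptors 2 rose (40%) and 0 fell, beside 19.6% and 19.7% of all tested genes. The rise of Optn was the largest of the 37 members. Optn encodes optineurin, which brings ubiquitin-tagged mitochondria and bacteria to LC3 (ENSMUSG00000026672; chromosome 2, 5020642 to 5064051, GRCm38.p6 as in the file headers). Optn had 25.1, 18.8 and 31.4 CPM in control 1 to 3 and 59.8, 56.8 and 67.8 CPM in CPC 1 to 3. Every CPC library stood above every control library, and replicate 3 was the highest of each group. The mean went from 25.1 ± 6.30 to 61.5 ± 5.70 CPM (SD, n = 3), a 2.45-fold rise (log2 change 1.29 ± 0.18, standard error; edgeR adjusted p = 0.00236).

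Sqstm1 encodes p62, a receptor that gathers ubiquitin-tagged proteins and is itself consumed by autophagy (chromosome 11, 50199366 to 50210827). It had 1075, 913 and 1367 CPM in control 1 to 3 and 2121, 1651 and 2624 CPM in CPC 1 to 3. The groups did not overlap, and both ordered their replicates the same way, with number 2 lowest and number 3 highest. The rise was 1.91-fold (log2 change 0.93 ± 0.21, standard error; edgeR adjusted p = 0.0128). Within a replicate number the fold of CPC over control was 1.97, 1.81 and 1.92 for numbers 1 to 3, so it varied less than the levels did. The call was lost without control 1 (edgeR adjusted p = 0.0502) and without replicate 1 of both groups (0.111), at log2 changes of 0.90 and 0.91.

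Per kilobase of exon Sqstm1 was the most abundant member in control, at 418 CPM per kb, and it was at 798 CPM per kb in CPC. The second in control was Gabarap, at 205 CPM per kb. The lowest was Atg9b, at 0.248 CPM per kb. Sqstm1, Gabarap and Atg9b held the same ranks when levels were divided by the merged exon length of the GENCODE M21 annotation in place of the deposited length.

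The remaining receptors did not pass the test. Nbr1, a p62-related receptor, had 274, 244 and 296 CPM in control and 251, 253 and 244 CPM in CPC (edgeR adjusted p = 0.297). Tax1bp1, a receptor that acts on ubiquitin-tagged aggregates, had 308 to 315 CPM in control and 266 to 302 CPM in CPC (edgeR adjusted p = 0.155). Calcoco1, known as a receptor for autophagy of the endoplasmic reticulum and the Golgi, had 137 to 146 CPM in control and 141 to 166 CPM in CPC (edgeR adjusted p = 0.188). Control and CPC overlapped for Nbr1 and Calcoco1 and did not for Tax1bp1, which was lower in CPC.

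Among genes of membrane nucleation and growth 4 of 11 rose (36.4%) and 2 fell (18.2%), beside 19.6% and 19.7% of all tested genes. Vmp1 encodes a lipid scramblase of the endoplasmic reticulum that autophagosome formation needs (chromosome 11, 86583865 to 86683836). Vmp1 had 257, 234 and 293 CPM in control 1 to 3 and 418, 385 and 534 CPM in CPC 1 to 3. It rose 1.71-fold with no overlap (log2 change 0.77 ± 0.14, standard error; edgeR adjusted p = 0.00606), with the same order of replicates in both groups as Sqstm1. Its call was lost without replicate 1 of both groups (edgeR adjusted p = 0.0608). The microRNA gene Mir21a lies within its locus on the same strand and had 0 counts in every library, in data from an mRNA library kit.

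Atg2b and Atg2a encode tube-shaped proteins that carry lipid to the growing membrane, and they differed. Atg2b (chromosome 12, 105616136 to 105685211) had 75.5, 75.2 and 74.2 CPM in control 1 to 3 and 125, 124 and 120.1 CPM in CPC 1 to 3. The libraries of a group lay within a few CPM of each other, and the rise was 1.64-fold (log2 change 0.72 ± 0.06, standard error; edgeR adjusted p = 3.51e-04), the smallest adjusted p among the members. Atg2a had 50.1, 52.6 and 51.9 CPM in control and 45.1, 35.9 and 46.4 CPM in CPC. CPC was lower without overlap, but Atg2a missed the threshold (log2 change -0.28 ± 0.11; edgeR adjusted p = 0.0783) and passed it with the replicate number as a block (0.0277). Gskip, a gene on the opposite strand that overlaps Atg2b, had 3976 counts against 12687 for Atg2b and a log2 change of -0.23 ± 0.09 (standard error; edgeR adjusted p = 0.0799).

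The paralogues of ATG9, the scramblase carried by the vesicles that seed the autophagosome, also went apart. Atg9a, the widely expressed gene (chromosome 1, 75180860 to 75192196), had 31.9, 30.7 and 30.3 CPM in control 1 to 3 and 27.0, 26.8 and 25.8 CPM in CPC 1 to 3. This fall of 1.17-fold passed the threshold narrowly (edgeR adjusted p = 0.0485). It was lost without any one library, with DESeq2 (0.0768), limma-voom (0.0560), unscaled library sizes (0.154) or no low-count filter (0.157). Ankzf1, which overlaps Atg9a on the other strand with 2145 counts against 3663, rose, at a log2 change of 0.60 ± 0.10 (standard error; edgeR adjusted p = 0.0047). Atg9b (chromosome 5, 24384181 to 24392143), known in mouse and human for a narrow tissue range, had 23, 19 and 18 counts in control 1 to 3 and 56, 37 and 55 counts in CPC 1 to 3. Its mean was 0.968 ± 0.225 CPM in control and 2.27 ± 0.370 CPM in CPC (SD, n = 3). This was a 2.35-fold rise (edgeR adjusted p = 0.0122). Its call was lost when any replicate number was left out of both groups (edgeR adjusted p = 0.0546 to 0.0774). Nos3, which overlaps Atg9b on the opposite strand with 67 counts against 208, had a log2 change of 0.69 ± 0.63 (standard error, edgeR adjusted p = 0.422).

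Uvrag encodes a Beclin 1 partner that acts in autophagosome maturation and endosome traffic (chromosome 7, 98885021 to 99141141). Uvrag had 39.6, 36.8 and 38.2 CPM in control 1 to 3 and 52.2, 54.8 and 55.4 CPM in CPC 1 to 3. It rose 1.42-fold with no overlap (log2 change 0.50 ± 0.07, standard error; edgeR adjusted p = 0.00220). Becn1, Atg14 and Ambra1, the other members that act with Beclin 1, did not pass the test. Becn1, the Beclin 1 gene, had 125, 120 and 129 CPM in control 1 to 3. In CPC 1 to 3 it had 124, 117 and 129 CPM. Each replicate number thus had nearly the same level in both groups (log2 change -0.02 ± 0.07, standard error). Atg14, the subunit that directs the kinase to autophagosome sites, had 31.8 to 35.1 CPM in control and 35.7 to 48.0 CPM in CPC (edgeR adjusted p = 0.149), the highest being CPC 3. Ambra1, a scaffold that binds Beclin 1, had 63.2 to 64.5 CPM in control and 63.9 to 68.2 CPM in CPC (edgeR adjusted p = 0.452).

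WIPI proteins read the phosphoinositide made by the kinase. Wipi1 (chromosome 11, 109573331 to 109611967) had 65.5, 76.5 and 64.0 CPM in control 1 to 3 and 51.6, 61.0 and 54.2 CPM in CPC 1 to 3, and it fell 1.24-fold with no overlap (edgeR adjusted p = 0.0473). The call was lost without any library but control 3 (adjusted p up to 0.161), with RLE factors (0.0506) and with unscaled library sizes (0.102). Wipi2, the family member that recruits ATG16L1, had 89.5 to 90.4 CPM in control and 84.2 to 110 CPM in CPC (edgeR adjusted p = 0.339).

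**Figure D2:**
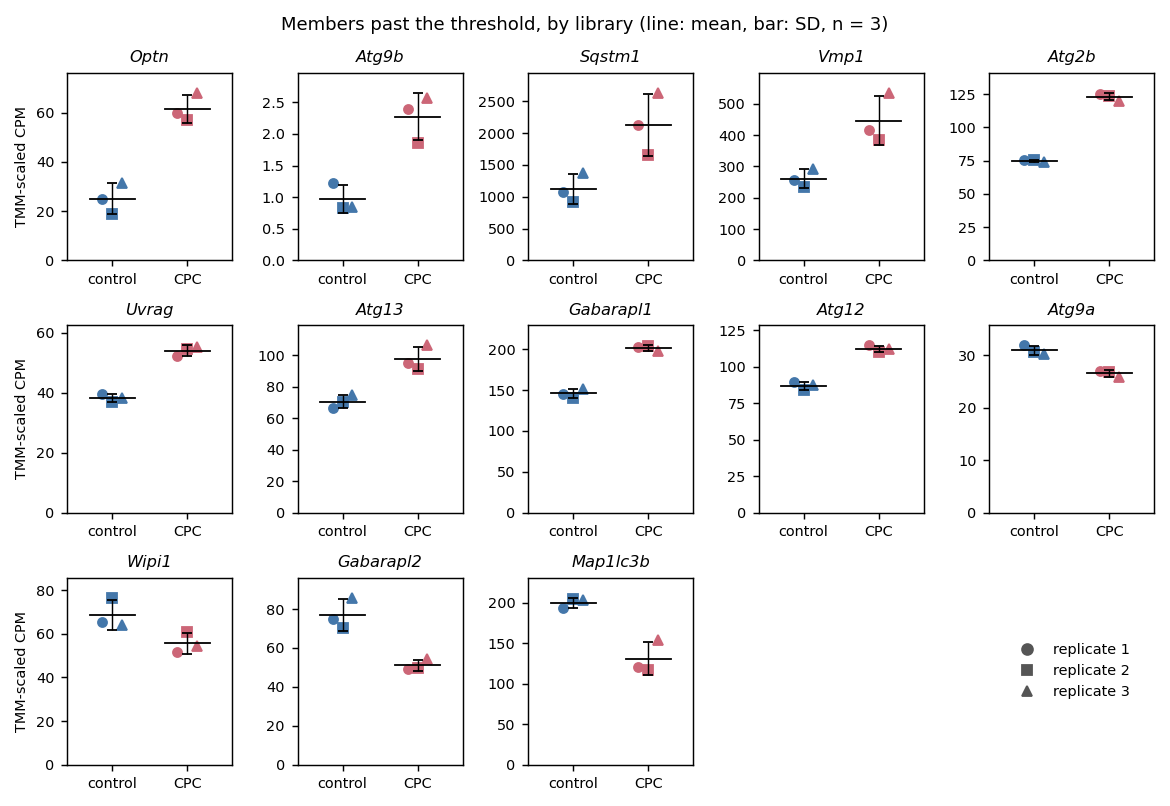
Levels of the 13 members past the threshold in each library, as TMM-scaled CPM, with 1 panel per gene and axes from 0. Marker shapes stand for replicate numbers, lines for means and bars for SDs over 3 libraries; in each panel the control and CPC libraries are separate.

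In the initiation complex 1 of 5 genes rose. Atg13, which encodes the adaptor that holds the ULK complex together (chromosome 2, 91674618 to 91710576), had 66.5, 70.2 and 74.7 CPM in control 1 to 3 and 95.4, 91.3 and 106 CPM in CPC 1 to 3. All CPC libraries were above the controls, a rise of 1.39-fold (log2 change 0.47 ± 0.08, standard error; edgeR adjusted p = 0.00496, and 0.0707 without replicate 1 of both groups). The kinase genes had overlapping groups. Ulk1 had 58.9 to 66.8 CPM in control and 59.3 to 65.1 CPM in CPC, a log2 change of -0.01 ± 0.08 (standard error). Ulk2 had 90.7 to 99.4 CPM in control and 89.0 to 98.8 CPM in CPC, at -0.02 ± 0.07. Rb1cc1, which encodes the large scaffold FIP200, had 120 to 129 CPM in control and 127 to 137 CPM in CPC. Atg101, which stabilises ATG13, had 22.4 to 23.8 CPM in control and 16.3 to 23.5 CPM in CPC, where CPC 2 was the lowest library (edgeR adjusted p = 0.214). Without CPC 3 Atg101 passed as lower (log2 change -0.38, edgeR adjusted p = 0.0474).

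In the conjugation systems 1 of 7 genes rose. Atg12 encodes the ubiquitin-like protein that is joined to ATG5 (chromosome 18, 46730144 to 46741580). Atg12 had 89.6, 84.1 and 87.1 CPM in control 1 to 3 and 115, 110 and 112 CPM in CPC 1 to 3. The rise of 1.29-fold was small but clear of the spread (log2 change 0.37 ± 0.06, standard error; edgeR adjusted p = 0.00361, and 0.0681 without replicate 1 of both groups). The other 6 had log2 changes between -0.15 and 0.19, with edgeR adjusted p of 0.224 or more. Of these, Atg7, the E1-like enzyme shared by both systems, had 31.5, 30.9 and 45.9 CPM in control and 35.2, 27.5 and 44.2 CPM in CPC, so that its libraries differed more by replicate number than by group. Atg5, the ATG12 target, had 37.9 to 39.8 CPM in control and 36.4 to 43.9 CPM in CPC. Atg3, the E2-like enzyme for LC3, had 38.2 to 49.8 CPM and 46.8 to 51.6 CPM, and passed the test without control 3. Atg10, the E2-like enzyme for ATG12, had 8.17 to 10.1 CPM and 7.78 to 12.4 CPM. Atg16l1, which places the complex on the membrane, had 31.6 to 33.9 CPM in control and 34.2 to 39.1 CPM in CPC. Its relative Atg16l2 had 20.6 to 24.6 CPM and 17.9 to 23.1 CPM. Counts of Atg16l2 are uncertain, because Fchsd2, on the opposite strand at the same locus, had 5117 counts against 2709 and rose (log2 change 0.64 ± 0.12, standard error; edgeR adjusted p = 0.0059).

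The ATG4 cysteine proteases trim newly made LC3 and GABARAP and later free them from lipid. Of 4 genes 0 passed edgeR's adjusted threshold, 0 passed with DESeq2 or limma-voom, and 1, Atg4c, had an unadjusted edgeR p under 0.05. Atg4c had 28.1, 26.5 and 30.1 CPM in control 1 to 3, and its CPC levels began at 31.7 CPM, above the highest control (log2 change 0.22 ± 0.08, standard error; edgeR adjusted p = 0.0699). Its groups did not overlap. It passed once replicate number entered the fit as a block (adjusted p = 0.0366), as it did with unscaled library sizes (0.0226). Atg4a, Atg4b and Atg4d had log2 changes between -0.14 and 0.04. Atg4b, the protease with the highest level per kilobase of the 4, had 74.5 to 86.3 CPM in control and 69.3 to 86.0 CPM in CPC. Genes on the opposite strand, Thap4 for Atg4b and Kri1 for Atg4d, rose and had 7700 against 9948 counts and 4100 against 1897 counts.

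The LC3 and GABARAP genes encode the proteins that coat the autophagosome, and within this family members moved in opposite directions. Gabarapl1 (chromosome 6, 129533160 to 129542346) had 146, 140.5 and 151 CPM in control 1 to 3 and 202, 204 and 198 CPM in CPC 1 to 3. It rose 1.38-fold with no overlap (log2 change 0.47 ± 0.06, standard error; edgeR adjusted p = 0.00181). Map1lc3b, the gene of LC3B, the usual protein marker of autophagosomes (chromosome 8, 121590361 to 121598760), had 193, 204 and 203 CPM in control 1 to 3 and 121, 117 and 154 CPM in CPC 1 to 3. It fell 1.53-fold (log2 change -0.61 ± 0.11, standard error; edgeR adjusted p = 0.0056), with CPC 3 closest to the controls. Its call was lost without replicate 1 or 2 of both groups (edgeR adjusted p = 0.0644 and 0.0580). Zcchc14, which overlaps it on the opposite strand with 8289 counts against 21074, had a log2 change of -0.13 ± 0.11 (edgeR adjusted p = 0.397).

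Gabarapl2, also called GATE-16 (chromosome 8, 111940703 to 111953612), had 74.7, 70.1 and 85.8 CPM in control 1 to 3 and 49.3, 49.7 and 54.2 CPM in CPC 1 to 3. It fell 1.51-fold without overlap (log2 change -0.59 ± 0.09, standard error; edgeR adjusted p = 0.00334, and 0.0528 without replicate 1 of both groups). Gabarap had 277, 262 and 291 CPM in control and 234, 247 and 245 CPM in CPC. Its groups did not overlap and it missed the threshold (log2 change -0.19 ± 0.07, standard error; edgeR adjusted p = 0.0698), which it passed with the replicate block (0.0407), with DESeq2 (0.0407) and with a filter of 5 CPM (0.0388). Map1lc3a, the LC3A gene, had 35.1, 40.6 and 49.0 CPM in control 1 to 3 and 33.8, 38.9 and 49.0 CPM in CPC 1 to 3, nearly equal within each replicate number.

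Divided by exon length, the family's makeup shifted more than its sum. The summed level was 438, 430.3 and 474 CPM per kb in control 1 to 3 and 392, 406 and 428 CPM per kb in CPC 1 to 3. Of that sum Gabarapl1 made up 17.9% ± 0.376 in control and 27.2% ± 1.52 in CPC (SD, n = 3). Map1lc3b made up 17.7% ± 0.943 and 12.6% ± 1.48, and Gabarapl2 10.2% ± 0.544 and 7.45% ± 0.137. Gabarap remained the largest share, at 45.8% ± 0.943 and 43.9% ± 1.33. With the merged GENCODE lengths the share of Gabarapl1 was 22.9% ± 0.569 and 32.9% ± 1.63 and that of Map1lc3b 8.39% ± 0.493 and 5.69% ± 0.714, so the shares depend on the length used and their direction did not. These shares are descriptions of the libraries and carry no test.

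Long stretches of identical sequence were not found between these relatives. The coding sequences of Gabarap and Gabarapl1 were 74.6% identical, those of Gabarapl1 and Gabarapl2 63.5% and those of Map1lc3a and Map1lc3b 73.6%, in the principal transcripts of GENCODE M21. The longest run shared exactly by any annotated coding transcripts was 17 bases between Gabarap and Gabarapl1, 16 between Gabarapl1 and Gabarapl2 and 15 between the LC3 genes.

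Ratios of related genes within a library do not depend on how libraries are scaled. For 10 pairs of members the count ratio was compared between groups, and the groups did not overlap for 7 of them. The 53.5% of single genes without overlap is a share of levels and not of ratios. No such share was computed over other pairs of genes, so the count of 7 has no background. With 3 libraries against 3 the exact two-sided permutation test cannot go below 0.1, and each of those 7 pairs had p = 0.1 (0.143 adjusted over the 10 pairs). Gabarapl1 had 1.95, 2.01 and 1.76 times the counts of Gabarapl2 in control 1 to 3 and 4.10, 4.11 and 3.66 times in CPC 1 to 3. The ratio of Gabarapl1 to Gabarap was 0.526, 0.536 and 0.520 in control and 0.866, 0.827 and 0.808 in CPC. Both ratios were thus well apart between the groups.

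The ratio of Atg2a to Atg2b was 0.664 to 0.699 in control and 0.290 to 0.386 in CPC. That of Atg9a to Atg9b was 25.4 to 36.1 in control and 9.97 to 14.3 in CPC. Sqstm1 had 3.73 to 4.61 times the counts of Nbr1 in control and 6.52 to 10.7 times in CPC. The other 2 pairs without overlap were Map1lc3a to Map1lc3b, whose ratio was 0.182 to 0.242 in control and 0.280 to 0.332 in CPC, and Atg4c to Atg4d, whose ratio was 1.73 to 2.04 in control and 2.05 to 2.36 in CPC. The ratios of Ulk1 to Ulk2, Wipi1 to Wipi2 and Atg16l1 to Atg16l2 overlapped between the groups, with exact permutation p of 0.9, 0.2 and 0.3. That test takes no account of the replicate number. Within numbers 1 to 3 the log2 ratio of Wipi1 to Wipi2 was lower in CPC each time, at differences of -0.53, -0.23 and -0.52. The log2 ratio of Atg16l1 to Atg16l2 was higher each time, at 0.49, 0.25 and 0.13, and that of Ulk1 to Ulk2 had mixed signs. These differences within numbers were not tested, and the counts of Atg16l2 are uncertain, as described above.

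**Figure D3:**
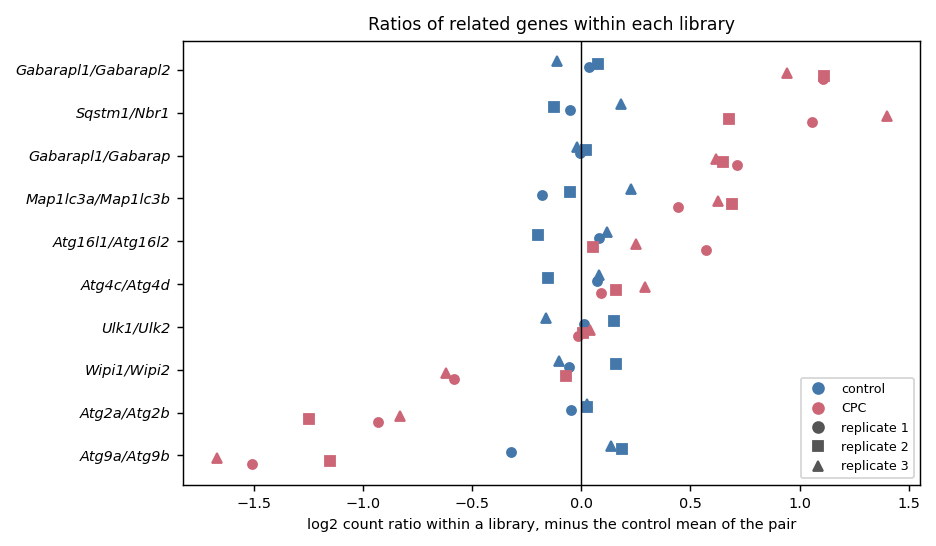
Log2 count ratio of each of the 10 pairs within each library, less the mean of that pair in control. Colours are groups and shapes replicate numbers; Gabarapl1/Gabarapl2 sits near 1.05 in CPC, and Atg2a/Atg2b lies below its control level in every CPC library.

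The order of libraries by replicate number was shared between the groups for many members, as it was across the transcriptome. Of 37 members 14 (37.8%) were highest in replicate 3 of both groups, against 23.6% of all tested genes, and Sqstm1, Optn, Vmp1, Atg13, Atg7 and Atg10 were among them. Replicate 1 was highest in both groups for 5 members (13.5%, against 12.7%) and replicate 2 for 2 (5.41%, against 16.2%). Within each replicate number CPC was above control in all 3 numbers for 15 members (40.5%, against 36.3%) and below in all 3 for 11 (29.7%, against 37.6%). The other 11 had mixed signs. The differences between these shares were not tested.

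A pair of lists of genes known from other work to be induced by stress-related transcription factors was also counted. Of 12 members that ATF4 or CHOP induce in amino acid-starved mouse fibroblasts, Sqstm1 and Atg12 rose and Map1lc3b and Gabarapl2 fell, and their median log2 change was 0.04. The other 8, Atg16l1, Atg3, Becn1, Nbr1, Atg7, Atg10, Gabarap and Atg5, did not pass. Of 7 genes that the lysosomal regulator TFEB induces, 5 of them members, Sqstm1, Uvrag and Atg9b rose, and Map1lc3b, Wipi1 and Vps18 fell, with a median of 0.06. Of the ATF4 and CHOP list 16.7% rose and 16.7% fell, and of the TFEB list 42.9% and 42.9%, beside 19.6% and 19.7% of all tested genes. These counts were not tested and bear on no factor's activity.

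Promoter windows of 250 bases before to 50 after the start, from RefSeq on GRCm38.p6, were found for 32 members, 12 of them among the 13 past the threshold. The E-box CACGTG, the core of sites for TFEB and its relatives, stood in 4 of 32 members (12.5%) and in 11.7% of tested genes with a window, searched on both strands. The 4 were Atg3, Atg5, Atg7 and Atg14, and 0 of the 12 past the threshold held it. The CLEAR palindrome, which contains the E-box, and the ATF4-type core TGATGNAA were in 0 members and in 0.783% and 2.67% of tested genes. The E-boxes of Atg3 and Atg5 are shown in capitals, for the stretch just before the start, as chr16:45158719-45158828 on the plus strand and chr10:44268289-44268338 on the plus strand.
Atg3: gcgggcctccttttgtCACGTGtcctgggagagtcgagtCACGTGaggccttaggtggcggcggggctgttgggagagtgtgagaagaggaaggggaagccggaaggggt
Atg5: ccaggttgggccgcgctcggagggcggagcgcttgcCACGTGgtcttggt

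For 5 members that moved, the receptors Sqstm1 and Optn and the 3 of the LC3 and GABARAP family that passed the threshold, the 150 bases before the start are shown with the GC box GGGCGG of either strand in capitals, a motif bound by SP1 that was added after the values were seen. GC boxes stood in 68.8% of the 32 members' windows and in 68.8% of those of tested genes. The windows are Sqstm1 at chr11:50210821-50210970 (minus strand), Optn at chr2:5064118-5064267 (minus), Map1lc3b at chr8:121590288-121590437 (plus), Gabarapl1 at chr6:129533042-129533191 (plus) and Gabarapl2 at chr8:111940553-111940702 (plus).
Sqstm1: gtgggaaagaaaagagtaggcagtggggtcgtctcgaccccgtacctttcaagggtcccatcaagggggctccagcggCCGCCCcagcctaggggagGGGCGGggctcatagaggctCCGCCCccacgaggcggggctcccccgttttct
Optn: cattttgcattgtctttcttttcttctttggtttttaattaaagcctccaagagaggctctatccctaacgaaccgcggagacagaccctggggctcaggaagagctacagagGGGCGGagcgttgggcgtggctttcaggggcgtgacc
Map1lc3b: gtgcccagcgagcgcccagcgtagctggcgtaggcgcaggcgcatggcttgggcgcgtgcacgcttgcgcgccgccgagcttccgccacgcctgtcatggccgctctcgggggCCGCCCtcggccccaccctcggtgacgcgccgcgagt
Gabarapl1: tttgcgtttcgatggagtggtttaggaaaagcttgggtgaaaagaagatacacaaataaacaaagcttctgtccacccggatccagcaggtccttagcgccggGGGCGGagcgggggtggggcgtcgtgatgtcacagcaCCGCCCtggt
Gabarapl2: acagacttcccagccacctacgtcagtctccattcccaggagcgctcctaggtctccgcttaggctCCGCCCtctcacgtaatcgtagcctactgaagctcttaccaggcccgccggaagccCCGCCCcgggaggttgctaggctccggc
Sqstm1 held 3 such boxes in this stretch, Gabarapl1 and Gabarapl2 held 2 each, and Optn and Map1lc3b held 1 each, so members that rose and members that fell both carried them. The GC content of the 150 bases ran from 52.7% for Optn to 76.7% for Map1lc3b.

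Other genes of the pathway, 50 listed by name and 49 tested, had 12 higher and 9 lower in CPC, against 19.6% and 19.7% of all tested genes. With the replicate block 14 were higher and 15 lower, where the block called 26.5% of all tested genes higher and 27.9% lower. Leaving out control 1 gave 7 higher and 5 lower, and leaving out CPC 1 or CPC 3 also gave 5 lower. When replicate 1 was dropped from control and CPC, 5 passed as higher and 2 as lower. The shares over all tested genes also shrank. They were 12.6% higher and 13.3% lower without control 1, and 6.18% and 6.88% without replicate 1 of both groups. In the Beclin 1 complex Rubcn, which encodes Rubicon, a brake on autophagosome maturation, had 63.1, 56.3 and 70.5 CPM in control and 102, 101 and 104 CPM in CPC and rose 1.62-fold (edgeR adjusted p = 0.00164), while Pik3r4, the kinase's regulatory subunit, fell 1.20-fold. Among effectors and scaffolds 2 of 5 rose. Epg5 encodes a tether of autophagosomes to lysosomes. It had 113, 101 and 147 CPM in control 1 to 3 and 286, 273 and 289 CPM in CPC 1 to 3. This was a 2.35-fold rise (log2 change 1.23 ± 0.14, standard error, edgeR adjusted p = 9.21e-04). Wdr45b, a WIPI relative, rose 1.21-fold.

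Of 13 genes of fusion with the lysosome 4 fell (30.8%, beside 19.7% of all tested genes): Snap29, a SNARE of the autophagosome, was 1.31-fold lower, Rab7, the late endosome GTPase, 1.26-fold, and the HOPS tethering genes Vps33a and Vps18 1.26-fold and 1.18-fold (edgeR adjusted p = 0.00885, 0.0121, 0.00691 and 0.0422). EdgeR and limma-voom called 0 of the 13 higher, while DESeq2 and an unadjusted p under 0.05 each called 1, Vps39. Vps39, another HOPS subunit, had 78.3, 69.9 and 83.4 CPM in control 1 to 3 and 94.5, 85.9 and 96.9 CPM in CPC 1 to 3. CPC was higher without overlap, at a log2 change of 0.26 ± 0.09 (standard error; edgeR adjusted p = 0.0513), and the replicate block called it higher (0.00632). Stx17, the SNARE that recruits Snap29 to the finished autophagosome, had 49.1 to 55.2 CPM in control and 40.8 to 49.0 CPM in CPC (edgeR adjusted p = 0.117, and 0.0295 with the replicate block).

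Of 13 tested receptors for organelles 2 were higher and 2 lower, or 15.4% each, beside the 19.6% and 19.7% of all tested genes. The difference from that background was not tested. Tex264 and Ncoa4, receptors for the endoplasmic reticulum and for ferritin, rose 1.43-fold and 1.36-fold. Rtn3 and Sec62, both receptors of the endoplasmic reticulum, fell 1.43-fold and 1.30-fold. Calcoco2, the 1 listed gene below the filter, had 4 counts over the 6 libraries. Of 14 regulators 7 rose and 2 fell, with the same background of 19.6% and 19.7% and no test of the difference. Tfe3, a relative of TFEB, had 43.4, 45.3 and 39.5 CPM in control and 58.9, 57.5 and 62.7 CPM in CPC, a rise of 1.40-fold (edgeR adjusted p = 0.00428). Tfeb itself had 4.5 to 5.6 CPM and 3.7 to 4.2 CPM (edgeR adjusted p = 0.152). Trp53inp1, Dapk1 and Trp53inp2, which encode promoters of autophagy in mammalian cells, went apart: the first rose 2.36-fold, Dapk1 rose 1.53-fold and Trp53inp2 fell from 222 to 148 CPM.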

How the data were processed

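The deposited files hold 1 whole-number count per gene and library with symbol, type, exon length and GRCm38.p6 location, per the file headers. The submitters' processing notes name Bowtie2, RSEM and hg19, which is human, so the aligner and counter behind these mouse counts are uncertain, as are genes overlapping on opposite strands, since no source states strand. Depth was 19079345 to 23157541 counts per library.

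Counts were filtered with filterByExpr (15000 of 26620 genes with any count), TMM-scaled and compared with edgeR 4.0.16 (quasi-likelihood, robust, no covariate; R 4.3.3), with Benjamini-Hochberg adjustment at 0.05. Standard errors are the log2 change over the square root of F. CPM values are TMM-scaled. Ratios added 0.5 counts. The script was tested on simulated data. Alternatives were DESeq2 1.42.0, limma-voom 3.58.1, RLE or no factors, other filters, a replicate block and leaving out libraries. Dropping the same replicate number in control and CPC was added after seeing the data.

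Replicate numbers paired the libraries: deviations from group means correlated at 0.611, 0.569 and 0.582 between equal numbers and at -0.222 to -0.336 between others. The deviations of a group's 3 libraries sum to 0 for each gene, so the negative values follow largely from the positive ones. The pairing comes from the data, as no label explains the numbers. Every member is named, and up to 4 other pathway genes per step with the smallest adjusted p among those past the threshold; Stx17, Vps39, Tfeb and Calcoco2 were named after their values were seen. Members and lists (steps, ATF4 and CHOP, TFEB, other pathway genes, markers of granulosa, leukocyte, oocyte, theca and stroma, endothelial, surface epithelial and erythroid cells) were chosen with earlier results of these data known.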

Additional observations from a re-analysis of the deposited data

How the results depend on the processing

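Of the 13 members past the threshold, Optn, Atg2b, Uvrag and Gabarapl1 kept the call in all 16 alternatives run, and none of the 13 changed sign; the calls of Atg9a and Wipi1 depended on most settings. Members higher in CPC numbered 4 to 10 and members lower 0 to 3 when a library, or a replicate number of both groups, was left out. Over all tested genes those ranges were 928 to 2613 higher and 1033 to 2576 lower, with 1932 higher without control 1 and 1736 higher and 1650 lower without replicate 2 of both groups; for other pathway genes they were 5 to 12 higher and 2 to 7 lower, with 4 lower without replicate 2 of both groups. Unscaled library sizes moved the median log2 change of all genes to 0.07. The calls over all tested genes went from 19.6% higher and 19.7% lower to 23.9% and 16.4%. With these sizes 10 members and 14 other pathway genes were higher, and 2 members and 5 other pathway genes were lower. Members with almost no change turned sign there: Map1lc3a (0.0364), Atg7 (0.0566), Ulk1 (0.0582), Ulk2 (0.0503), Becn1 (0.0542) and Atg4b (0.0243). Without single libraries the sign also turned, over -0.188 to 0.0979 for Map1lc3a, -0.0593 to 0.292 for Atg10, -0.196 to 0.190 for Atg7, -0.0640 to 0.0453 for Ulk1, -0.0611 to 0.0339 for Ulk2, -0.0469 to 0.0340 for Becn1 and -0.130 to 0.0334 for Atg4b. Without replicate 2 of both groups Atg7 was at 0.0493, Ulk1 at 0.0835 and Becn1 at 0.00691; without replicate 3 of both Atg7 was at 0.00819 and Ulk2 at 0.00138; without replicate 1 of both Atg4d was at -0.0143. With the replicate block 10 members were higher and 6 lower, and 14 other pathway genes were higher and 15 lower. Its shares over all tested genes were 26.5% higher and 27.9% lower. The block added Atg4c, Atg2a and Gabarap, and ended no member's call. Among uncalled members 8 turned sign in at least 1 alternative. The cause of these shifts was not tested. Atg9b had 208 counts over the 6 libraries, the fewest of the members, and fell below the filter of 5 CPM.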
